A study of Mus musculus with 6 samples.

Results

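The genes described here encode the machinery of G2 and mitosis: the kinases that start mitosis, the proteins that condense and hold chromosomes, the kinetochore, the spindle and the ring that splits the cell. They were chosen by name as a list of 50 gene symbols, and all 50 were among the 16022 symbols in the table. The RNA came from LSK cells of mouse bone marrow. This gate takes cells that lack lineage markers and carry high Sca-1 and c-kit, and it holds hematopoietic stem cells and early progenitors. Of 6 libraries, 3 came from wild-type (WT) mice and 3 from HDAC6 knockout mice. HDAC6 is a deacetylase of the cytoplasm whose substrates include tubulin. The deletion, the strain, the age and any pooling of animals are not stated in the labels, and no treatment was named for either group. Nothing in the labels ties the 3 samples of a genotype to different animals. The p-values below therefore cover only sample-to-sample spread, which may be technical.

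Genes of this kind are switched on together late in the cell cycle. Cyclin A and cyclin B bind CDK1, and the resulting kinase, helped by PLK1 and the Aurora kinases, drives chromosome condensation and spindle assembly. When every kinetochore is attached, CDC20 and the anaphase-promoting complex mark cyclin B for destruction and the cell divides. Most adult hematopoietic stem cells are quiescent and hold little of these transcripts, whereas multipotent progenitors in the same LSK gate cycle more often. In bulk RNA a larger share of dividing cells and more transcript per dividing cell cannot be told apart.

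Their shared timing is tied, in textbook terms, to short promoter elements. The cell cycle genes homology region (CHR) is bound by the DREAM and MuvB complexes, and the CCAAT box by NF-Y. The RefSeq promoter table (build GRCm38.p6, 250 bases before to 50 bases after each start site) held 44 promoters for 41 of the 50 genes. A CHR match, searched on both strands as the letters TTTGAA, the letters TTCGAA, the letters TTTAAA or the letters CTTGAA, was present in 38 of the 44 promoters (86.4%), against 28.9% of 13209 promoters of genes tested and 37.3% of all 32851 promoters. CCAAT, also searched on both strands, was present in 79.5% of the 44, against 38.1% and 37.4%. Both were present in 75.0%, against 11.5% and 14.5%. An E2F-like match (GCGGGAA or GCGCGAA, both strands) was present in 6.82%, against 10.6% and 6.003%. A match is a run of letters in the window and does not show that a factor bound there.

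The 26 bases around the CHR match nearest the start site are shown for 10 genes with a range of fold changes, so that the element can be compared between them. They are written 5′ to 3′ on the gene's strand, and capitals mark the match. In Kif11 the match is on the other strand and reads as the reverse complement of TTTGAA.
Plk1, chr7:122159396-122159421 (+): gggtttgtatTTTAAAtccccgcggc
Bub1, chr2:127831830-127831855 (-): gcgcggggaaTTCGAAtcgccggcgg
Cdca3, chr6:124830196-124830221 (+): tggagggaagTTTGAAactccgggct
Ccnb1, chr13:100786513-100786538 (-): cggcccggggTTTAAAcctaagcccg
Cdk1, chr10:69352912-69352937 (-): ccgcggcgagTTTGAAactgctggca
Aurka, chr2:172370538-172370563 (-): tgactcctatTTTAAAaggagaacct
Kif11, chr19:37376353-37376378 (+): gtctccatttTTCAAAattgaggcgc
Ccnb2, chr9:70421535-70421560 (-): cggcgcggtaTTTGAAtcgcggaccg
Cdc20, chr4:118437346-118437371 (-): acagttgggtTTTGAAggagccaatg
Mki67, chr7:135716462-135716487 (-): gccgttttggTTTGAAtcgggcgggc
In these genes the match lay between 5 bases (Ccnb2) and 98 bases (Mki67) from the start site. A match within 100 bases of the start was present in 77.3% of the 44 promoters, against 12.3% of promoters of genes tested. The letters were found both in genes with little difference between the genotypes (Mki67, Cdc20) and in those with more (Plk1, Bub1).

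The 250 bases before the Plk1 start site (chr7:122159185-122159434, plus strand, GRCm38.p6) are shown because Plk1 had the smallest p of the 50 genes. Capitals mark the CHR and CCAAT matches, of which the window holds 2 and 1.
Plk1: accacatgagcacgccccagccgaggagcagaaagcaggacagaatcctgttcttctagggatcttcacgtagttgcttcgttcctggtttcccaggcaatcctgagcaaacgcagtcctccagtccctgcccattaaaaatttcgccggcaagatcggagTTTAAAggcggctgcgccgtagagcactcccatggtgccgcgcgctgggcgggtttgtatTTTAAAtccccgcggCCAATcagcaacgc
The windows of Bub1 (chr2:127831860-127832109, minus strand) and Cdca3 (chr6:124829926-124830175, plus strand) each hold 2 CCAAT matches, 1 on each strand (ATTGG is the reverse complement), and no CHR match before the start site. Their CHR match lies after it.
Bub1: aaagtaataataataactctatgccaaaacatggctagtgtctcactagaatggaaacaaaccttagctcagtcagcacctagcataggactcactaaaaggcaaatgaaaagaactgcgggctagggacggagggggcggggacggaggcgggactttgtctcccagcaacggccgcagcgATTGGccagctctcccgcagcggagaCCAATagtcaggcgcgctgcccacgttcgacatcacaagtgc
Cdca3: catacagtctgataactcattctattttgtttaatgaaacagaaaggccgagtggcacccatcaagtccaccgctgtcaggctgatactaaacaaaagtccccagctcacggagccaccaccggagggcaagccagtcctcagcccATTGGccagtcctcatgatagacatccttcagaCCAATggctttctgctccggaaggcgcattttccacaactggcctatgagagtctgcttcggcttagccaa
The 30 genes whose promoters held both elements had a median log2 fold change of 0.19 between knockout and WT. For the 11 whose promoters did not hold both the median was 0.26, and it was 0.31 for the 9 without a promoter entry. These are descriptions, and the sets were formed after the fold changes were known.

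Total counts were similar, from 25993971 to 28743672 per library, and TMM scaling factors were 1.017 to 1.034 in WT and 0.952 to 1.012 in the knockout. Hdac6 itself stood at 68.0, 58.2 and 54.3 CPM (counts scaled to library size, after TMM) in WT and at 9.62, 7.69 and 11.3 CPM in the knockout. The groups did not overlap, and the log2 fold change of Hdac6 was -2.66 (SE 0.19; edgeR adjusted p = 0.000594, and 1.03e-37 to 0.0322 over the alternatives). All 50 genes of G2 and mitosis passed the filter on low counts, with 332 to 20254 reads in each library. Counting error was not compared with the differences between libraries.

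Transcripts of G2 and mitosis were on average slightly more abundant in the knockout. Knockout levels exceeded WT in 48 of the 50 genes, and the median log2 fold change was 0.23 (1.18-fold). Of all 12875 genes tested 49.5% exceeded WT, and their median was -0.0034. The mean log2 level of the list was -0.09, -0.18 and -0.08 in WT replicates 1 to 3 and 0.28, 0.11 and -0.04 in knockout replicates 1 to 3, each relative to the gene's mean over the 6 libraries. Each knockout library lay above all WT libraries by this mean, knockout replicate 3 by the smallest margin. Per single gene, 0 of 50 were called higher or lower by edgeR's quasi-likelihood test with Benjamini-Hochberg adjustment over all genes (background 0.00777% of genes, which is Hdac6 alone), and adjusted p ran from 0.298 to 0.987. With p left unadjusted and a limit of 0.05, 16 of the 50 were higher (background 7.24%) and 0 lower (6.15%). DESeq2 called 2, Ccna2 and Plk1, both higher (background 0.897%), and limma-voom called 0.

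The distribution of fold changes shows the size of this shift.

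**Figure D1:**
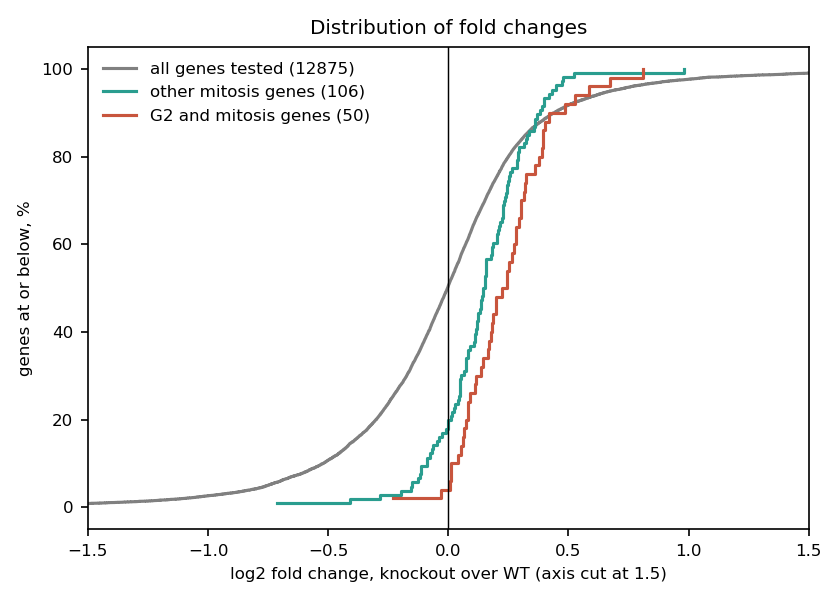
Cumulative share of genes (vertical axis, %) by log2 fold change of knockout over WT (horizontal axis) for the 50 G2 and mitosis genes, 106 other mitosis genes and all 12875 genes tested. The curve of the 50 genes lies to the right of that of all genes around 0 and ends at 0.81.

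The values of the 50 ran from -0.23 (Psrc1) to 0.81 (Ccna2).

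In 20 of the 50 genes all 3 knockout values lay above all 3 WT values (background 8.86% of genes), and in 0 genes all lay below (background 9.7%). The knockout libraries contributed unequally. Knockout replicate 1 exceeded every WT library in 46 of 50 genes (31.2% of all genes did so in that library), replicate 2 in 33 (29.6%) and replicate 3 in 23 (22.4%). Replicate 1 was the highest of all 6 libraries in 43 genes. Among the 3 knockout libraries replicate 1 was the highest in 45 genes (90%, against 36.6% of all genes tested). Replicate 3 was the lowest of all 6 in 8 genes. It was the lowest of the 3 knockout libraries in 38 (76%, against 36.7% of all genes tested). Leaving out knockout replicate 1 gave a median of 0.15 and 41 of 50 genes above WT. Leaving out knockout replicate 3 gave a median of 0.31, 48 genes above WT and 1 call by edgeR, Plk1 (adjusted p = 0.0472). Of all 13125 genes tested in that fit 44 were called, 30 of them higher.

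**Figure D2:**
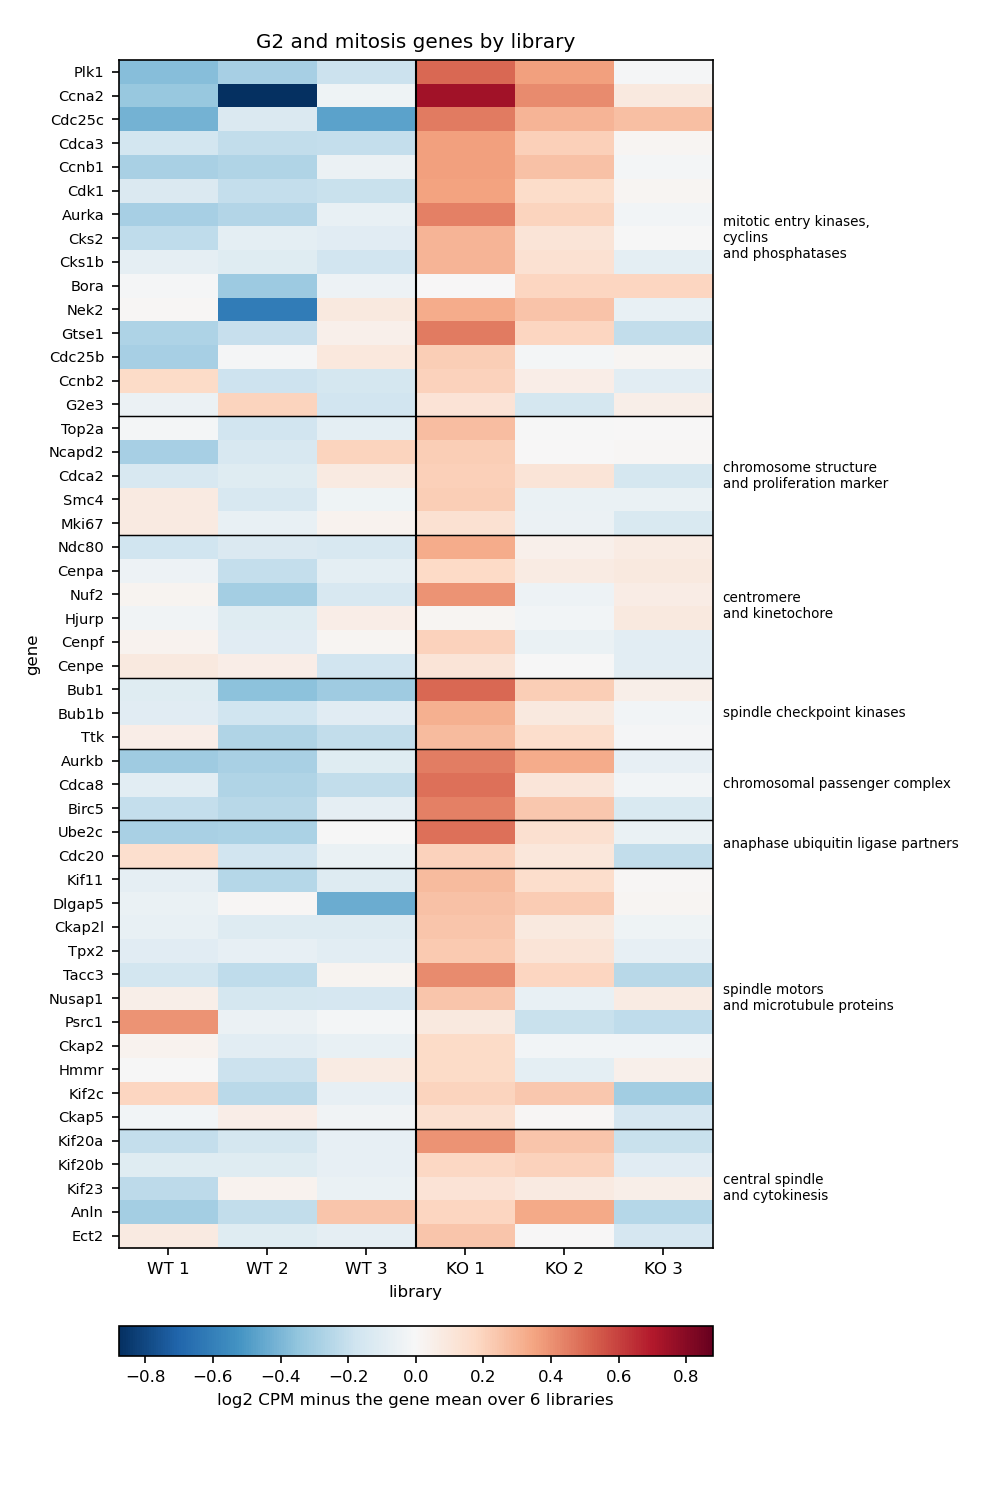
Each of the 50 genes (rows, grouped by role and ordered by p) in each of the 6 libraries (columns), coloured by log2 CPM minus the gene's mean over the libraries, red above and blue below. Knockout replicate 1 is the reddest column, and knockout replicate 3 is paler and partly blue.

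The scaling of the libraries mattered for the number of genes above WT, though not for their side as a group. With library size alone 40 of 50 lay above WT, with upper-quartile scaling 44, and by the deposited FPKM 41. The medians were 0.16, 0.18 and 0.15, while those of all genes were -0.08, -0.05 and -0.05.

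Kinases, cyclins and phosphatases of mitotic entry had a median of 0.32 on the log2 scale (1.25-fold), with 15 of 15 above WT and 0 called by edgeR. In 9 the groups did not overlap (background 8.86% of genes), and 8 were higher at an unadjusted p under 0.05 (background 7.24%). Plk1 encodes polo-like kinase 1, which activates CDK1 and acts at centrosomes and kinetochores. It measured 97.05, 103 and 110 CPM in WT and 178, 162 and 125 CPM in the knockout. The groups did not overlap, and knockout replicate 3 came nearest to WT. The log2 fold change of Plk1 was 0.58 (SE 0.14; edgeR adjusted p = 0.298, DESeq2 adjusted p = 0.0235, and 0.0235 to 0.744 over the alternatives).

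Ccna2 encodes cyclin A2, which carries cells through S phase into mitosis. Its level was 154, 105 and 189 CPM in WT and 323, 259 and 206 CPM in the knockout. WT replicate 2 was low and WT replicate 3 came close to knockout replicate 3, so the spread within each group was the widest of the list in WT, with a ratio of 1.79 between the highest and lowest WT library. The log2 fold change was 0.81 (SE 0.22; edgeR adjusted p = 0.298, DESeq2 adjusted p = 0.0206, and 0.0206 to 0.744 over the alternatives). Ccnb1, cyclin B1, measured 201, 204 and 236 CPM in WT and 314, 292 and 242 CPM in the knockout (log2 fold change 0.40, SE 0.12). Its close relative Ccnb2 measured 219, 171 and 175 CPM in WT and 224, 203 and 183 CPM in the knockout (0.11, SE 0.13), with overlapping groups. The partner of these cyclins, Cdk1, measured 145, 136 and 138 CPM in WT and 202, 177 and 159 CPM in the knockout (0.36, SE 0.11), and its groups did not overlap.

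The phosphatases that release CDK1 from inhibition differed from each other. Cdc25c was low in all libraries, at 13.1, 15.9 and 12.6 CPM in WT and 23.9, 21.5 and 20.9 CPM in the knockout. Its log2 fold change was 0.67 (SE 0.18), with close knockout values and groups that did not overlap. Cdc25b measured 54.8, 66.6 and 71.7 CPM in WT and 77.8, 66.4 and 67.9 CPM in the knockout (0.14, SE 0.14), with overlap. Aurka, the centrosomal Aurora kinase, measured 98.5, 101 and 115 CPM in WT and 164, 138 and 118 CPM in the knockout (0.42, SE 0.14). Bora, which helps Aurora A activate PLK1, had a log2 fold change of 0.25 (SE 0.13), and of the 50 it was the only gene in which knockout replicate 1 was the lowest knockout library, at 68.6 CPM against 78.1 CPM in both others. Cdca3, an adaptor for the degradation of the CDK1 inhibitor WEE1, ran from 79.7 to 83.1 CPM in WT and from 94.0 to 119 CPM in the knockout (0.40, SE 0.12). The edgeR adjusted p was 0.298 to 0.98 for every gene of this group.

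**Figure D3:**
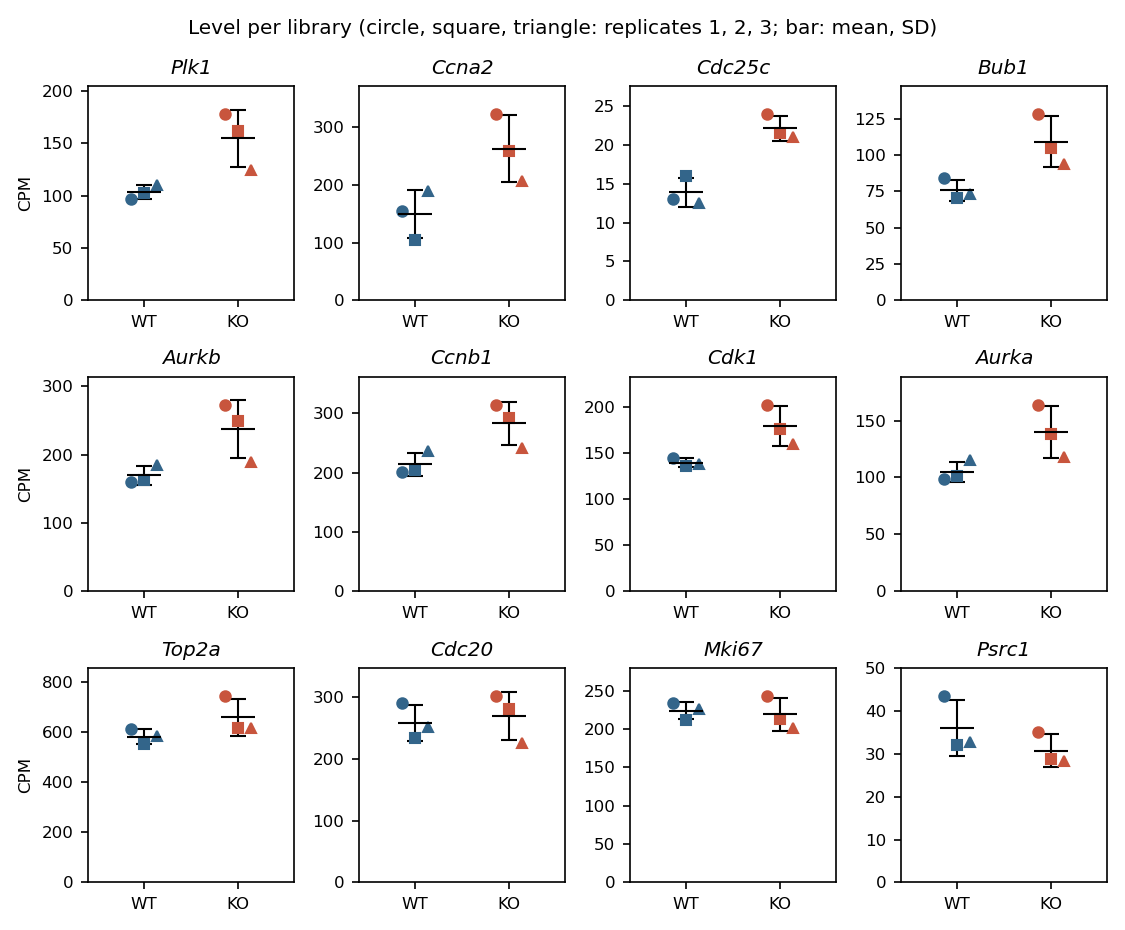
Level of 12 genes in CPM (vertical axis from 0) in each WT and knockout (KO) library, with the mean and SD of 3 libraries. In the first 8 panels the knockout libraries all lie above the WT libraries, with knockout replicate 3 nearest to them, and in the panels of Cdc20, Mki67 and Psrc1 the groups overlap.

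The CDK-binding subunits Cks1b and Cks2 had the highest levels per transcript length of all 50 genes, at 381 ± 20.2 and 271 ± 16.5 FPKM in WT and 430 ± 45.2 and 313 ± 25.98 FPKM in the knockout (SD, n = 3). In CPM their log2 fold changes were 0.24 (SE 0.12) and 0.28 (SE 0.11). Nek2, a centrosome kinase, and Gtse1, a microtubule protein that restrains p53, had log2 fold changes of 0.32 and 0.30 with overlapping groups. G2e3, a ubiquitin ligase, differed least in this group (0.01, SE 0.14).

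Genes of chromosome structure differed little. Top2a, the topoisomerase that untangles sister chromatids, measured 611, 550 and 583 CPM in WT and 744, 615 and 618 CPM in the knockout (log2 fold change 0.18, SE 0.11; edgeR adjusted p = 0.465). Its groups did not overlap, but knockout replicates 2 and 3 lay just above WT replicate 1. Mki67 encodes Ki-67, the surface coat of mitotic chromosomes that is widely used to count cycling cells. It measured 234, 212 and 226 CPM in WT and 243, 214 and 201 CPM in the knockout. The groups overlapped, with a log2 fold change of -0.03 (SE 0.11) and a 95% interval from -0.27 to 0.21. The condensin genes Ncapd2 (0.14, SE 0.13) and Smc4 (0.07, SE 0.11) and Cdca2, a phosphatase partner on anaphase chromosomes (0.11, SE 0.13), also overlapped between groups.

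At the centromere, 6 of 6 genes exceeded WT (median 0.14 on the log2 scale), and 2 had non-overlapping groups (background 8.86% of genes). Ndc80, the microtubule-binding core of the kinetochore, measured 63.6, 65.7 and 65.3 CPM in WT and 90.2, 74.3 and 75.8 CPM in the knockout (log2 fold change 0.30, SE 0.12; edgeR adjusted p = 0.341). Its partner Nuf2 had a log2 fold change of 0.28 (SE 0.15). WT replicate 1 of Nuf2, at 83.3 CPM, lay above knockout replicate 2, at 79.8 CPM. Cenpa, the centromeric histone H3, ran from 96.95 to 109 CPM in WT and from 118 to 127 CPM in the knockout (0.22, SE 0.11), while its chaperone Hjurp (0.05, SE 0.09) overlapped between groups. The large kinetochore motor and scaffold genes Cenpe and Cenpf had log2 fold changes of 0.01 and 0.04 with 95% intervals of -0.25 to 0.27 and -0.23 to 0.31.

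The spindle checkpoint kinases, which hold back anaphase, numbered 3. All 3 exceeded WT, their median was 0.28 on the log2 scale, and 0 were called by edgeR. Bub1 measured 83.8, 70.2 and 72.8 CPM in WT and 128, 105 and 93.7 CPM in the knockout. The groups did not overlap, and the log2 fold change was 0.53 (SE 0.14; edgeR adjusted p = 0.298, and 0.0562 to 0.744 over the alternatives). Bub1b, which encodes BubR1, measured 222, 210 and 222 CPM in WT and 294, 251 and 233 CPM in the knockout (0.25, SE 0.11). Ttk, the Mps1 kinase, overlapped between groups (0.28, SE 0.14).

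The chromosomal passenger complex corrects faulty attachments and later helps place the cleavage furrow. Its 3 genes on the list had the highest median log2 fold change of the 8 role groups, 0.39. Each was higher at an unadjusted p under 0.05 (background 7.24% of genes). Aurkb, its kinase, measured 161, 163 and 185 CPM in WT and 272, 250 and 189 CPM in the knockout (0.48, SE 0.14; edgeR adjusted p = 0.298, and 0.0527 to 0.744 over the alternatives). Cdca8, which encodes borealin, measured 168, 149 and 154 CPM in WT and 250, 193 and 176 CPM in the knockout (0.39, SE 0.14). Birc5, which encodes survivin, measured 121, 118 and 133 CPM in WT and 191, 165 and 128 CPM in the knockout (0.38, SE 0.15). In Birc5 knockout replicate 3 lay below WT replicate 3, so the groups overlapped. The gene of another subunit, Incenp, which was not on the list, had a log2 fold change of 0.40 (SE 0.15; edgeR adjusted p = 0.323) and was picked out here after its value had been seen.

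The partners of the anaphase-promoting complex were split. Ube2c, its ubiquitin-conjugating enzyme, measured 116, 116 and 140 CPM in WT and 197, 155 and 135 CPM in the knockout (log2 fold change 0.39, SE 0.15), and knockout replicate 3 lay within the WT range. Cdc20, its mitotic activator, measured 291, 234 and 253 CPM in WT and 302, 282 and 226 CPM in the knockout (0.06, SE 0.13). Its sign changed with the scaling, at -0.02 with library size alone.

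Spindle motors and microtubule proteins exceeded WT in 10 of 11 genes (median 0.17 on the log2 scale), with 0 called by edgeR. In 3 of them the groups did not overlap (background 8.86% of genes). Kif11, the motor that pushes spindle poles apart, measured 277, 245 and 271 CPM in WT and 354, 325 and 294 CPM in the knockout (0.30, SE 0.11; edgeR adjusted p = 0.313). Dlgap5, a spindle assembly protein, ran from 46.1 to 62.7 CPM in WT and from 63.1 to 74.4 CPM in the knockout (0.32, SE 0.15). Ckap2l ran from 162 to 168 CPM in WT and from 171 to 208 CPM in the knockout (0.20, SE 0.11). Tacc3, a stabiliser of kinetochore fibres, measured 189, 181 and 216 CPM in WT and 283, 242 and 180 CPM in the knockout (0.26, SE 0.16), so that knockout replicate 3 was the lowest of all libraries.

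In the other microtubule genes the groups overlapped. Psrc1, a p53-responsive spindle protein, was the only gene besides Mki67 below WT, at 43.5, 31.9 and 32.7 CPM in WT and 35.1, 28.8 and 28.3 CPM in the knockout (-0.23, SE 0.17). WT replicate 1 was high, and leaving it out gave -0.07. Ckap5, a microtubule polymerase (0.01, SE 0.11), Ckap2 (0.08, SE 0.12), Hmmr (0.08, SE 0.12) and Kif2c, a microtubule depolymerase (0.09, SE 0.17), overlapped between groups. Tpx2, the spindle activator of Aurora A, and Nusap1 had 0.19 and 0.17.

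Genes of the central spindle and cytokinesis exceeded WT in 5 of 5 genes (median 0.18 on the log2 scale). In 1 the groups did not overlap (background 8.86% of genes), and 0 were higher at an unadjusted p under 0.05 (background 7.24%). Kif20a measured 155, 161 and 170 CPM in WT and 236, 212 and 156 CPM in the knockout (0.31, SE 0.15; edgeR adjusted p = 0.378). Its first 2 knockout libraries lay above WT and knockout replicate 3 lay within the WT range. Kif20b showed the same layout, at 109, 109 and 112 CPM in WT and 133, 136 and 110 CPM in the knockout (0.20, SE 0.12). Kif23, the centralspindlin motor, was the gene whose groups did not overlap, from 115 to 138 CPM in WT and from 140 to 146 CPM in the knockout (0.17, SE 0.11). Ect2 (0.07, SE 0.12), which activates RhoA at the furrow, and Anln (0.18, SE 0.18), which links the ring to the membrane, overlapped.

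**Figure D4:**
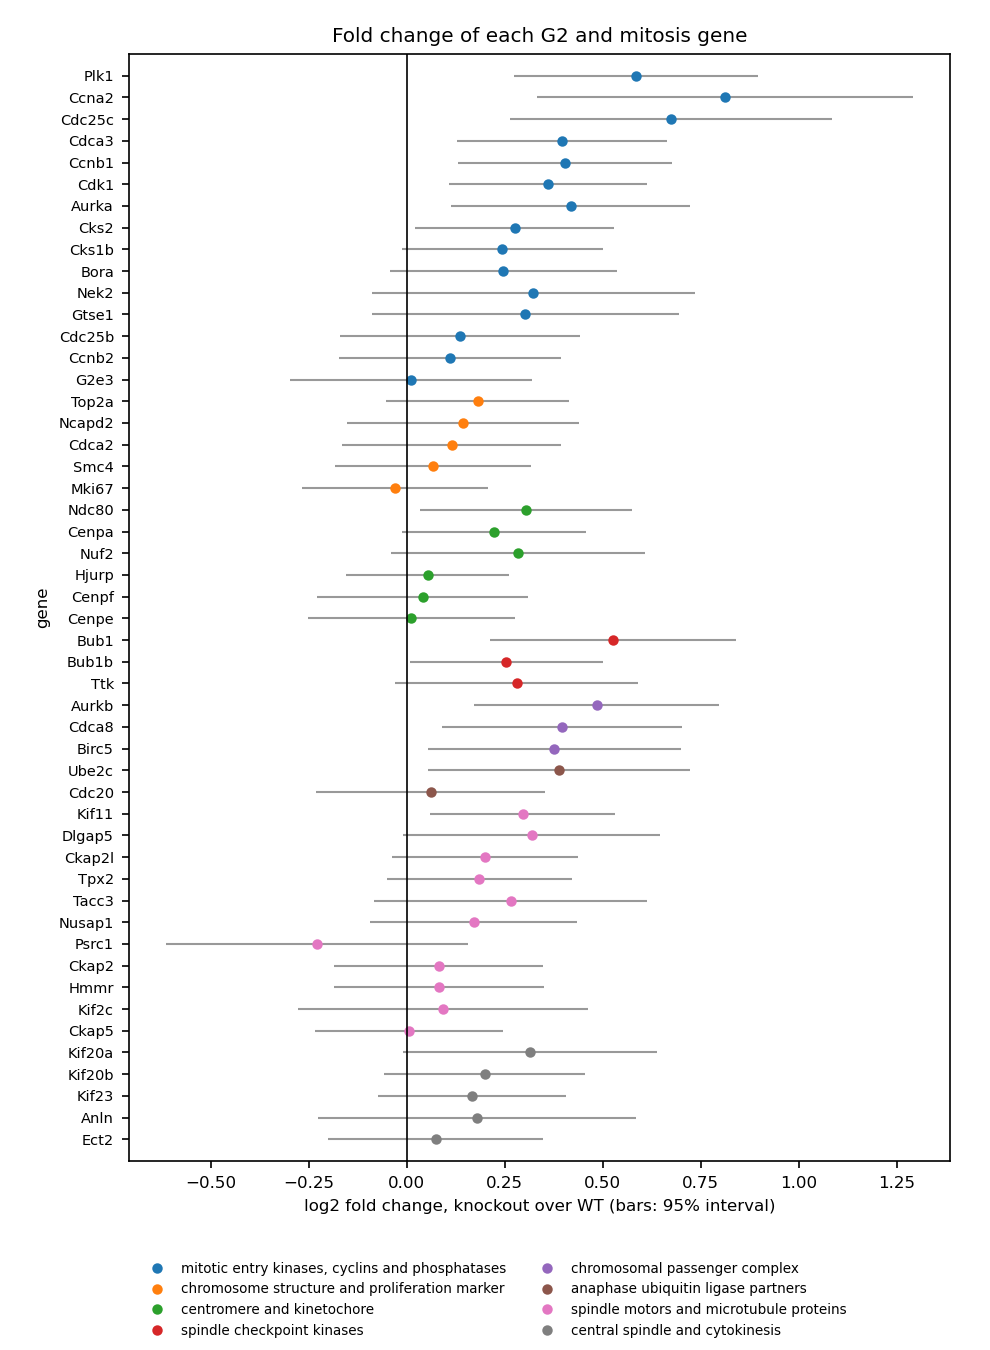
Log2 fold change of knockout over WT (horizontal axis) for each of the 50 genes, coloured by role, with 95% intervals from the edgeR fit before any adjustment for the number of genes. The intervals of 16 genes lie wholly above 0, led by Plk1, Ccna2 and Cdc25c, and 0 lie wholly below.

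Seen by library, each role group was highest in knockout replicate 1.

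**Figure D5:**
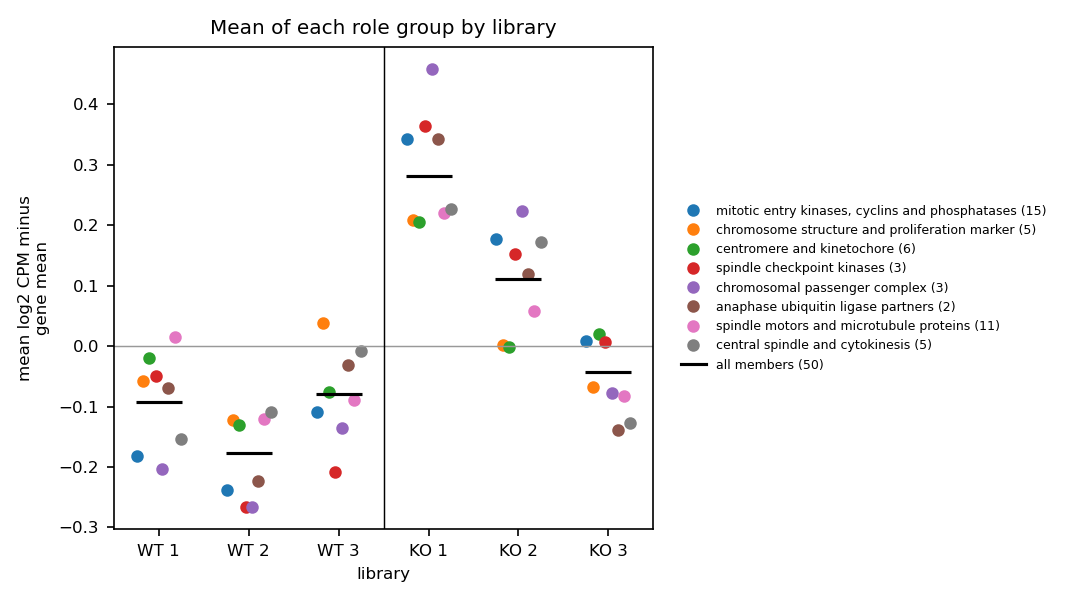
Mean log2 CPM minus the gene mean (vertical axis) of each of the 8 role groups, as points, and of all 50 genes, as horizontal lines, in each library. All 8 groups are highest in knockout replicate 1, and in knockout replicate 3 they lie between -0.14 and 0.02.

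The passenger complex stood at 0.46 in knockout replicate 1 and at -0.08 in knockout replicate 3, against -0.27 to -0.13 in WT. Cytokinesis genes stood at 0.23, 0.17 and -0.13 in knockout replicates 1 to 3, against -0.15 to -0.01 in WT, so the third knockout library lay inside the WT range.

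Spread within a genotype was also described. The median SD of log2 CPM over the 50 genes was 0.12 in WT and 0.16 in the knockout, whereas over all genes tested it was 0.22 and 0.20. The SD was larger in the knockout in 34 of 50 genes (68.0%), against 47.1% of all genes. Gtse1 had the widest ratio between its highest and lowest knockout library, 1.59, followed by Tacc3 at 1.57 and Ccna2 at 1.57. In WT, Nek2 (1.62) followed Ccna2 (1.79).

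Per transcript length the WT levels of the list ran from 8.51 ± 1.28 FPKM for Cdc25c and 8.94 ± 0.37 FPKM for Cenpf to 381 FPKM for Cks1b (SD, n = 3). Genes over 100 FPKM in WT numbered 9. These were Cks1b, Cks2, Ube2c at 177 ± 16.7, Cdc20 at 169 ± 18.7, Birc5 at 154 ± 3.51, Ccnb2 at 146 ± 20.5, Top2a at 119 ± 5.89, Cdca8 at 114 ± 7.11 and Ccnb1 at 104 ± 8.19 FPKM. Neighbours in this order, such as Ube2c and Cdc20 or Top2a and Cdca8, differed by less than their SD. The order of levels did not follow the order of fold changes, since Cdc25c, the lowest, had the second highest fold change and Cks1b, the highest, a middling one.

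Other genes of mitosis, 106 in 6 groups, all passed the filter and 0 were called by edgeR, DESeq2 or limma-voom. Of these 85 lay above WT (median log2 fold change 0.15), 18 had non-overlapping groups on the higher side (background 8.86% of genes) and 4 on the lower side (9.7%). With p left unadjusted 11 were higher (background 7.24%) and 0 lower (6.15%), so the count of higher genes was close to the background. E2f8, a repressor of E2F targets, averaged 68.0 ± 3.91 CPM in WT against 91.8 ± 8.10 CPM in the knockout (SD, n = 3; log2 fold change 0.43, SE 0.12; edgeR adjusted p = 0.298). Mybl2, which encodes B-Myb (0.48, SE 0.22), and Foxm1 (0.29, SE 0.23) overlapped between groups. Kinetochore and checkpoint genes had 31 of 34 above WT (median 0.14), led by p by Cenpk (0.42, SE 0.14) and the cohesin protector Sgo2a (0.38, SE 0.14). Condensin and chromosome genes had 9 of 9 above WT (median 0.18), entry control genes 11 of 15 (median 0.21, with Nek6 at 0.40), and spindle and cytokinesis genes 14 of 19 (median 0.14). Subunits of the anaphase-promoting complex and securin lay closest to WT, with 12 of 19 above it and a median of 0.05, and securin itself (Pttg1) stood at -0.29 (SE 0.15; edgeR adjusted p = 0.410), all its knockout libraries lying below WT. Fzr1, which encodes the activator CDH1, went the other way, at 57.2, 25.5 and 60.4 CPM in WT and 122, 101 and 58.4 CPM in the knockout. Its groups overlapped, and its log2 fold change of 0.98 (SE 0.35; edgeR adjusted p = 0.328) was the highest of the 106. Both genes were picked out after their values had been seen.

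Markers of the cell types in or near the gate were summed per library to set beside these values. The 10 markers of stem cells and of the gate summed to 1870 to 2340 CPM in WT and to 1333, 1336 and 1943 CPM in knockout replicates 1 to 3, so their sum was lower in the 2 knockout libraries in which the genes of G2 and mitosis were highest. Most of this sum was Kit, which encodes c-kit, at 1323, 1367 and 1127 CPM in WT and 725, 817 and 1082 CPM in the knockout. Ly6a, which encodes the gate marker Sca-1, went the other way, at 60.3, 68.7 and 66.2 CPM in WT and 82.1, 119 and 119 CPM in the knockout (log2 fold change 0.71, SE 0.16; edgeR adjusted p = 0.298). Ctnnal1 was also above WT in all 3 knockout libraries (0.53, SE 0.21), so the list did not move as a whole. The 50 genes themselves summed to 6942 to 7528 CPM in WT and to 9555, 8438 and 7604 CPM in the knockout. Granulocyte and monocyte progenitor markers (9) summed to 5001 to 7752 CPM in WT and to 6785, 17468 and 5695 CPM in the knockout. Most of this sum was Mpo, at 4277 to 6581 CPM in WT and 5438, 14157 and 4735 CPM in the knockout. In knockout replicate 1 Prtn3, Ctsg, Ms4a3 and Ly86 lay above all WT libraries. Mpo, Elane, Csf1r and Cebpe lay within the WT range there, and Fcgr3 below it. Leaving out knockout replicate 2, where the sum was highest, 47 of the 50 genes exceeded WT and the median was 0.24 on the log2 scale. Erythroid progenitor markers (9) summed to 207 to 259 CPM in WT and 262 to 479 CPM in the knockout, megakaryocyte markers (6) to 492 to 558 and 298 to 462 CPM, mast cell and basophil markers (6) to 126 to 145 and 142 to 240 CPM, and mature neutrophil markers (8) to 42.7 to 109 and 18.3 to 37.2 CPM. B lineage markers (7) summed to 55.8 to 82.5 and 65.2 to 92.3 CPM, macrophage and dendritic markers (6) to 35.3 to 58.0 and 38.5 to 59.7 CPM, and T and natural killer markers (9) to 267 to 323 and 272 to 364 CPM. The T and natural killer sum was nearly all Nkg7, at 260 to 311 CPM in WT and 256 to 312 CPM in the knockout, while other members of that list were low and mostly higher in the knockout. Il2rb measured 2.87, 5.76 and 5.15 CPM in WT and 8.78, 23.6 and 33.3 CPM in the knockout (log2 fold change 2.25, SE 0.45; edgeR adjusted p = 0.298), with no overlap. Ncr1 ran from 0.646 to 2.54 CPM in WT and from 1.62 to 14.1 CPM in the knockout, Gzma from 0.341 to 0.395 and from 0.294 to 7.47 CPM, and Prf1 from 0 to 0.530 and from 1.02 to 4.46 CPM. In Il2rb, Ncr1, Gzma and Prf1 knockout replicate 1 was below knockout replicate 2. It was also below knockout replicate 3 in Il2rb, Ncr1 and Gzma, but above it in Prf1 (1.80 against 1.02 CPM). In Il2rb and Prf1 knockout replicate 1 lay above all WT libraries. Of the T cell markers, Cd3e and Cd3d were each at 0 in 5 of 6 libraries. Cd3g was at 0 in all WT libraries and at 0.184, 0.254 and 0.471 CPM in knockout replicates 1 to 3. The B cell marker Ms4a1 was at 0 in 4 libraries. The part of these cell types in the differences of G2 and mitosis genes was not tested.

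In 15 of the 50 genes the deposited counts of at least 1 library were not whole numbers, among them Ccna2, Ccnb1, Aurka, Birc5, Ube2c, Kif20a, Tacc3 and Hjurp. The sources say neither how reads shared with related sequences were split nor whether strand was used. How far this affects the levels of these 15 is therefore not known. Counts of Plk1, Cdc25c, Bub1, Aurkb and Cdk1 were whole in every library, but whether their levels are more certain was not tested.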

How the data were processed

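RNA of LSK cells was sequenced in 3 WT and 3 HDAC6 knockout samples. The build GRCm39 and the tools featureCounts 2.0.3, HISAT2 2.2.1, DESeq2 and SAMtools 1.13 stand in the submitters' processing notes, with no role for each. Those notes say nothing of annotation, strand or shared reads. Per the file headers, each library has a deposited estimated count and a deposited FPKM value for every gene. Between 19.6% and 20.9% of the estimated counts per library were not whole, and they were rounded.

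Counts were tested with edgeR 4.0.16 in R 4.3.3 (filterByExpr with a minimum count of 10, TMM, glmQLFit with robust dispersion and the legacy option, glmQLFTest), with Benjamini-Hochberg adjustment over the 12875 genes tested and a threshold of 0.05. SE is the log2 fold change over the root of F. Alternatives were RLE, upper-quartile and no scaling beyond library size, no filter, 5 CPM in 3 libraries, DESeq2 1.42.0, limma-voom (limma 3.58.1) with sample weights, non-robust dispersion, the newer edgeR option, limma on log2(FPKM + 1), the replicate number as a block, and each library left out. The script was checked on simulated counts.

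The genes, lists and tests were chosen with earlier results of these data known. The genes named are Hdac6, for each role group the 3 with the smallest p and the one with the highest FPKM, Mki67, Top2a, Ccnb1, Cdk1, Plk1 and Aurka, those below WT, the 4 other mitosis genes with the smallest p, Foxm1 and Mybl2. All others were named to account for the whole list. All pairs of libraries differed by more than sampling noise (chi-square per degree of freedom 25.8 to 91.4), so each library counted as 1 sample. Separate animals cannot be inferred from these values. The closest pair, at 25.8, crossed the genotypes and joined WT replicate 3 with knockout replicate 3. Knockout replicate 3 stood at 35.5, 34.3 and 25.8 from WT replicates 1 to 3. From knockout replicates 1 and 2 it stood further off, at 58.4 and 53.8. The cause was not tested. Protein sequences were not used here.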

Additional observations from a re-analysis of the deposited data

How the results depend on the processing

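Over 17 alternatives the median log2 fold change of the 50 genes kept its sign. It moved by less than 1 SD of the list mean between knockout replicates (0.16), the larger SD of the 2 groups. The list mean varied less between WT replicates, and the moves were not compared with that smaller SD. DESeq2 called 181 genes in all (120 higher, 61 lower) against 1 by edgeR, and 2 of the 50 against 0, so single-gene calls depend on the tool. Leaving out 1 library at a time gave 1 to 44 genes called in all, 0 to 1 of the 50 called, 41 to 48 above WT and a median of 0.15 to 0.31. In these fits 21 to 32 of the 50 had non-overlapping groups in either direction. Fewer libraries make this easier, and the share over all genes was not computed for these fits, so this count has no background. The 44 calls arose without knockout replicate 3, and without knockout replicate 1 there were 4. In all 6 of these fits 40 of the 50 genes lay above WT and Psrc1 below it, while 9 changed side. For 37 single genes, 629 values were recomputed over the 17 alternatives, and 620 kept their side and call. The 37 were chosen largely for a small p within their group. G2e3, Smc4, Cenpe, Cenpf, Kif2c, Ckap5 and Ect2, which changed side, were not among them. Only Hdac6 was called in the main fit, so a kept call mostly meant no call. Mki67 ran from -0.109 to 0.0287 over the left-out libraries. Cdc20 ran from -0.0268 to 0.173 over them, and stood at -0.0180 with library size alone and at -0.0154 by FPKM. The cause of these reversals was not tested. With the replicate number as a block, 1 gene in all and 0 of the 50 were called, 48 lay above WT and the median was 0.23. Same-numbered samples shared only a number: their deviations correlated at 0.03, -0.04 and -0.12, and not every sample correlated best with its own number. With 3 libraries a group, changes of the size seen here are close to the spread between libraries. The part of sequencing depth was not tested.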
